A study of Homo sapiens with 10 samples.

Results

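Monocytes and macrophages are told apart from other blood cells by a set of surface receptors, adaptors and secreted proteins, and 48 genes of this kind were followed in MV4-11 cells with and without knockout of IRF8. They were chosen by symbol, as a list of monocyte and macrophage identity genes, and all 48 were among the 19590 genes of the RNA-Seq table. MV4-11 is an established acute myeloid leukemia line of the monocytic M5 subtype with an internal tandem duplication in FLT3. The control group consisted of 4 libraries of cells that had received the control vector, and the IRF8 KO group of 4 libraries of cells in which IRF8 had been targeted with CRISPR/Cas9 from a lentiviral vector and which had been cloned by limiting dilution. Their comparison addresses which of these genes differ between cloned knockout cells and control cells. The methods describe cloning only for the knockout cells, so loss of IRF8 and cloning cannot be told apart. The knockout clones named in the methods are fewer than the 4 knockout libraries and were not all made with the same guide RNA, so libraries may share a clone. The labels do not say which clone gave which library, nor whether replicates were separate cultures, so that p-values measure the spread between these libraries, which may be technical.

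IRF8 is a transcription factor of the interferon regulatory family that myeloid progenitors need to become monocytes and dendritic cells rather than granulocytes. It binds DNA mostly together with a partner, above all the ETS factor PU.1 (gene SPI1), at sites that join an ETS core to an IRF core. Among the genes followed here, the scavenger receptors take up lipoproteins, debris and microbes, the immunoglobulin-like receptors tune activation through adaptors such as TYROBP, C1q and the receptor kinases MERTK and AXL serve the removal of dying cells, and the urokinase receptor and its ligand act in plasminogen activation at the cell surface.

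Values are normalized counts, reads per gene divided by 1 size factor per library. Libraries held between 39560072 and 65519047 reads on genes. The 13110 genes averaging 10 or more normalized counts across all 8 libraries were compared with limma on log2(normalized count + 1), a scale that understates the change of low genes, and a gene was called at a Benjamini-Hochberg adjusted p below 0.05 over all of them. Log2 fold changes are differences between group means on this log2 scale. Rises and falls given as a fold are ratios of the group means of normalized counts, so both can differ for the same gene. Exact two-sided permutation tests of 4 against 4 libraries cannot go below p = 0.029. IRF8 itself had 36891, 15192, 43016 and 22535 normalized counts in control replicates 1 to 4 and 6377, 2401, 12903 and 7819.7 in knockout replicates 1 to 4. Every knockout value lay below every control value, and IRF8 mRNA was present in all 4 knockout libraries (log2 fold change -2.11 with a standard error, SE, of 0.51, and an adjusted p of 0.022 from limma). Without control replicate 1, control replicate 3 or knockout replicate 1 its adjusted p was 0.059, 0.058 and 0.053. The paper reports that IRF8 protein was absent from its knockout clones by Western blotting. Of 6 defining monocyte markers, CSF1R, SPI1 and CD33 were expressed in all libraries and not called. With the replicate number as a block, CD33 was lower (limma adjusted p = 0.049). CD14 had few reads, with 8.03 ± 4.78 normalized counts in the control and 19.3 ± 5.32 in the IRF8 KO group (SD, n = 4 each). Its groups did not overlap, and it was not called (limma adjusted p = 0.11), but was higher with the block (adjusted p = 0.048). ITGAM rose from 79.6 ± 22.1 to 709.7 ± 366 (SD, n = 4 each, limma adjusted p = 9.8e-04). LYZ had 12725, 1734, 14757 and 2629.7 normalized counts in the control and 248604, 13767, 39385 and 32984 in the knockout libraries, with knockout replicate 1 far above the others. It was higher in the knockout library of each of the 4 pairs, with overlapping groups (adjusted p = 0.060, and 0.0021 with the block). Markers of other lineages moved as well. The summed level of 11 neutrophil and granulocyte markers was between 31420.5 and 34658 normalized counts in the control libraries. In the IRF8 KO libraries it was between 136042 and 325257. By group means, PRTN3 was the largest part of it, with 13906 in the control and 102495 in the IRF8 KO group. Of 7 tested markers, 5 were higher (ELANE, MPO, PRTN3, AZU1 and CTSG) and 0 lower. CXCR2 was not called, nor was LTF, with 21.5 ± 24.9 and 4.89 ± 8.23 normalized counts (SD, n = 4 each). With the block, LTF was lower (adjusted p = 0.033). CAMP, MMP8, CEACAM8 and FCGR3B were too low to test. The sum of 11 dendritic cell markers ranged from 63978 to 87805 in the control and from 51980.4 to 65383 in the IRF8 KO libraries, with 5 of 7 tested markers lower and 0 higher. FLT3, which was not called, and LAMP5 made up most of this sum. LAMP5 (log2 fold change -0.50) and ZBTB46 (-1.92), both called lower, are on chromosome 20, where the median over 351 tested genes was -0.92. CLEC10A fell from 1586 ± 513 to 25.7 ± 15.9, CD1C from 279 ± 133 to 15.4 ± 9.10 and ZBTB46 from 618 ± 205 to 163 ± 48.7 (SD, n = 4 each), while the untested CLEC9A was at 0 in all control libraries and between 3.20 and 15.7 in the knockout libraries. The part of these markers in the results that follow was not tested. Of the tested markers of B cells (3), T and NK cells (1), erythroid cells and megakaryocytes (2) and stem and progenitor cells (4), 1, 0, 0 and 1 were lower and 0, 0, 1 and 0 higher. With the block, ITGA2B (adjusted p = 0.0044) and NKG7 (adjusted p = 0.039) were lower and GATA2 higher (adjusted p = 0.038) in addition. Over all tested genes, 9.56% were called lower and 8.65% higher without the block. CD3D and CD3E, defining markers of T cells, and MS4A1, a defining marker of B cells, were at or near 0 in all libraries.

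The monocyte and macrophage genes did not respond as one group. Of the 48 genes, 10 were lower and 10 were higher in the IRF8 KO cells, 20 were tested and not called, and 8 were too low to test. AXL, CD36, CD1D, GPR18, A2M, SIRPA, PLAUR, LST1, AIF1 and ADGRE2 fell. MARCO, ADGRE1, CD4, CD68, TNFSF13B, SLC11A1, TYROBP, MERTK, EMILIN2 and ADGRE5 rose. All 20 called genes moved in the same direction in each of the 4 pairs of same-numbered libraries. For all of them but TNFSF13B, the groups did not overlap, so any pairing would have given this. In the whole table, 18.2% of the tested genes were called, 9.56% lower and 8.65% higher. Counts in the role groups below rest on few genes each and are to be read beside these shares. The members were chosen with earlier results of these data known, and 3 of the 40 tested members (AXL, CD36 and CD163) passed the filter through the control group alone, so their counts are a description.

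Over the 40 tested members, log2 fold changes had a median of 0.36, against -0.00094 for all tested genes, and their median absolute log2 fold change was 0.99, against 0.30. A change of 2-fold or more on the fitted scale was seen in 19 members, against 15.4% of all tested genes. When the criteria of the study were applied instead, an unadjusted p below 0.01 together with such a change, 8 members were lower and 8 higher, where 6.12% and 4.78% of all tested genes were (10.9% in all). The values of the 2 groups did not overlap in 19 of the tested members, 10 of them lower and 9 higher, against 25.3% of all tested genes (13% lower and 12.3% higher). With the replicate number as a block, 11 members were called lower and 13 higher, against 14.6% and 14.2% of all tested genes. In bulk RNA, a lower value from fewer expressing cells and one from less RNA per cell cannot be told apart. Without control replicate 1 or without control replicate 3, 6 members were called higher, in place of 10.

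**Figure D1:**
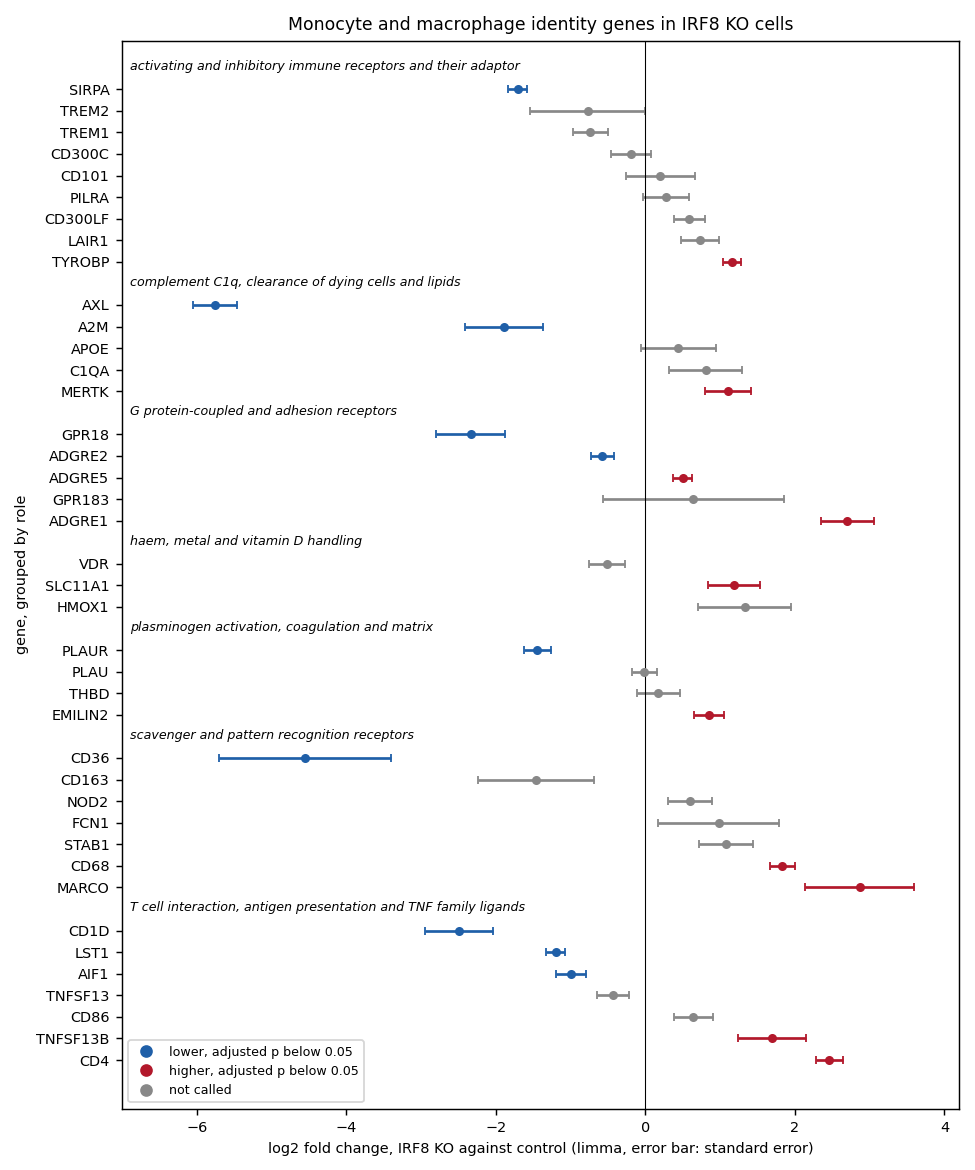
Log2 fold change (x axis, IRF8 KO against control, limma on log2(normalized count + 1)) of the 40 tested monocyte and macrophage genes, grouped by role on the y axis. Points are estimates from 4 against 4 libraries, bars are standard errors, and colour marks the 10 genes called lower, the 10 called higher and the 20 not called. Genes called lower and genes called higher both stand in 6 of the 7 role groups, and the estimates run from AXL at -5.76 to MARCO at 2.86.

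Promoter sequence was looked at because IRF8 acts through known DNA elements. RefSeq windows of 300 bases around annotated starts (GRCh38.p14) were matched by symbol for 32 of the 48 members, with 51 windows in all. They were searched on both strands for the ETS-IRF element GGAANNGAAA, the reverse order GAAANNGGAA and the interferon response core GAAANNGAAA, each counted by itself even where 2 of them overlap. The ETS-IRF element was found in 6 of the 32 members (CD1D, CD36, CD68, EMILIN2, GPR183 and LST1), against 3.47% of the 27305 genes with a window, where genes have unequal numbers of windows. Of these, CD36, CD1D and LST1 were called lower, CD68 and EMILIN2 higher, and GPR183 was not called. The reverse order was found in AIF1 and CD1D (3.40% of all genes) and the interferon response core in AXL, CD163, GPR18 and TNFSF13B (4.38% of all genes). The windows of the largest falls and rises among called members with an ETS-IRF element are shown, 2 for each direction, 5′ to 3′ on the strand of the gene, with the matched bases in capitals. The match in the CD36 and the CD68 window lies on the opposite strand. They are CD36 chr7:80638266-80638565 (match at positions 252 to 261), CD1D chr1:158179697-158179996 (positions 128 to 137), CD68 chr17:7579388-7579687 (positions 197 to 206) and EMILIN2 chr18:2846756-2847055 (positions 167 to 176), all on the plus strand, with positions counted from the 5′ end of the window. For CD36, 2 of the 6 annotated windows held a match and 1 of them is shown. For CD1D, 1 of 2 annotated windows held a match.
CD36: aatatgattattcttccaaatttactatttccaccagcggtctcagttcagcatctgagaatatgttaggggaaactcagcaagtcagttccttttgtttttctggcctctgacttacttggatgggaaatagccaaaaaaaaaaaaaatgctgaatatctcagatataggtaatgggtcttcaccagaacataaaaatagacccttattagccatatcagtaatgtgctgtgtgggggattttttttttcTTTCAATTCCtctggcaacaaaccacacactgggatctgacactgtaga
CD1D: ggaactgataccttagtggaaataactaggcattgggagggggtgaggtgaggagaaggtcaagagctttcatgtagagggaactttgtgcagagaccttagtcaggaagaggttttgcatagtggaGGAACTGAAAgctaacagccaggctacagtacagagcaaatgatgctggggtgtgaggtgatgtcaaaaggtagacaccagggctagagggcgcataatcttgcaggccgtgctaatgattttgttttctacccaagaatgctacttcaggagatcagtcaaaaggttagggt
CD68: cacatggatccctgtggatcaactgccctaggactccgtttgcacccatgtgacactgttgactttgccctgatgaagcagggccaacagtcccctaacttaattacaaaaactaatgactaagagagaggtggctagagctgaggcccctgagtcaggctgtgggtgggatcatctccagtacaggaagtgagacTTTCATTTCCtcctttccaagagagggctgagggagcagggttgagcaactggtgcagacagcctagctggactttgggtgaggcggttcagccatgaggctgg
EMILIN2: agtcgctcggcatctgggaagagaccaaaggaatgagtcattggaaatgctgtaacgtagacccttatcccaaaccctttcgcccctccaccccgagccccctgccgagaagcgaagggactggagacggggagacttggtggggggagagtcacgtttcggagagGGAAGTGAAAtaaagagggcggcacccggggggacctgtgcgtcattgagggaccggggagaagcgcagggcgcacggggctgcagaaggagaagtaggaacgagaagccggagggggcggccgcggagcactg
Members with the element in these windows stood on both sides of the division, and a match describes the letters only. Binding of IRF8 at these windows was not analysed here. The paper reports that most IRF8 binding lay outside promoters, where this search did not look.

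Among the scavenger and pattern recognition receptors, 1 of 7 tested genes fell and 2 rose, while MRC1 and MSR1 were too low to test. CD36, the class B scavenger receptor for oxidized lipoproteins and fatty acids, had 157, 4.31, 188 and 29.2 normalized counts in control replicates 1 to 4 and 2.13, 0, 4.06 and 0 in knockout replicates 1 to 4. The groups did not overlap, but control replicate 2 was close to the knockout values, and replicates 1 and 3 were above replicates 2 and 4 in both groups. The estimated log2 fold change came to -4.55 (SE 1.15, limma adjusted p = 0.025) and depended on the pseudocount, with -5.11 at 0.5 and -3.15 at 5. The call was lost without control replicate 1, control replicate 3, knockout replicate 2 or knockout replicate 4, with adjusted p-values of 0.068, 0.064, 0.056 and 0.071. It was also lost with quantile normalization of the libraries. CD68, a lysosomal glycoprotein widely used as a macrophage marker, had 2254, 2549, 2033 and 2177 normalized counts in the control and 10649, 8427, 6940.2 and 6579 in the knockout libraries. Each knockout library was far above all control libraries, and knockout replicate 1 was the highest. CD68 rose 3.62-fold between group means (log2 fold change 1.83, SE 0.17, limma adjusted p = 2.4e-04). MARCO, a collagenous scavenger receptor of tissue macrophages, had 8.04, 12.9, 5.37 and 22.6 normalized counts in the control and 390.0, 42.1, 55.5 and 55.1 in the knockout libraries. The groups were apart, and knockout replicate 1 stood well above the other knockout libraries. On the log2 scale it rose by 2.86 (SE 0.73, limma adjusted p = 0.027), and by 2.13 without knockout replicate 1 (adjusted p = 0.024). It was not called without control replicate 1 (adjusted p = 0.066) or control replicate 3 (adjusted p = 0.069).

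The other tested genes of this group did not pass the test. CD163, the haemoglobin-haptoglobin receptor, had 25.9 ± 18.0 normalized counts in the control and 7.95 ± 5.91 in the knockout libraries (SD, n = 4 each, limma adjusted p = 0.24). FCN1, a lectin of circulating monocytes, had 32.5 ± 27.7 and 63.6 ± 47.7 (SD, n = 4 each, adjusted p = 0.46). For both, the SD was of the order of the mean in each group, so that a change of this size could not be separated from the spread. NOD2, the intracellular sensor of muramyl dipeptide, had 1062 ± 403 and 1553 ± 430.0 normalized counts (SD, n = 4 each, adjusted p = 0.21). STAB1, a scavenger and clearance receptor of macrophages and sinusoidal endothelium, had 162 ± 26.0 and 374 ± 169 (SD, n = 4 each, adjusted p = 0.072). Once the replicate number was a block, NOD2 (adjusted p = 0.044) and STAB1 (adjusted p = 0.018) were called higher. MRC1, the mannose receptor of macrophages, was at no more than 2.82 normalized counts in any library, and MSR1 at no more than 6.89.

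Of the activating and inhibitory receptors and their adaptor, 1 of 9 tested genes fell and 1 rose. Called genes were thus 22.2% of those tested, near the 18.2% of all tested genes. TYROBP (DAP12), the adaptor through which TREM and other activating receptors signal, had 1831, 2035, 1888 and 1934 normalized counts in the control and 4985, 4046, 4394 and 3779 in the knockout libraries. The control libraries lay close together and every knockout library was above them. TYROBP rose 2.24-fold (log2 fold change 1.16, SE 0.12, limma adjusted p = 3.6e-04). Neither of the TREM receptors that signal through it was called. TREM1, which amplifies inflammatory responses of monocytes and neutrophils, had 2514 ± 618 normalized counts in the control and 1523 ± 433 in the knockout libraries (SD, n = 4 each, log2 fold change -0.73, adjusted p = 0.058, and 0.037 with the replicate block). TREM2, a lipid-sensing receptor of macrophages and microglia, had 2014, 303, 2166 and 455 normalized counts in control replicates 1 to 4 and 605, 239.9, 1431 and 338 in knockout replicates 1 to 4. Within each group, replicates 1 and 3 were above replicates 2 and 4, and in each pair the knockout library was the lower one. Without the pairing the groups overlapped (adjusted p = 0.55), and with the replicate block the adjusted p was 0.052.

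SIRPA, the inhibitory receptor for the CD47 "do not eat me" signal, had 11294, 11969, 10762 and 13273 normalized counts in the control and 3211, 3765, 3346 and 4199 in the knockout libraries. The groups were widely separated, and SIRPA fell 3.26-fold (log2 fold change -1.71, SE 0.13, limma adjusted p = 7.9e-05). The gene is on chromosome 20, where the median log2 fold change over 351 tested genes was -0.92. With every gene centred in each library on the median of its chromosome, SIRPA differed between the groups by -0.80 (limma adjusted p = 0.0045), and all 4 knockout libraries remained below all control libraries (exact permutation test, p = 0.029). LAIR1, a collagen receptor with inhibitory motifs, had 9093 ± 3392 and 14415 ± 1866 normalized counts (SD, n = 4 each). It was higher in the knockout library of each of the 4 pairs but was not called (adjusted p = 0.080), and was called with the replicate block (adjusted p = 0.013). CD300LF, an inhibitory receptor for phospholipids, had 1453 ± 283 and 2198 ± 503 (SD, n = 4 each, adjusted p = 0.089). CD300C, CD101 and PILRA had log2 fold changes of -0.20, 0.20 and 0.27, with standard errors of 0.27, 0.46 and 0.30, and none of them was called. CD300E, an activating receptor of mature monocytes, was too low to test, with 10.5, 6.04, 11.8 and 14.1 normalized counts in the control and 2.13, 2.87, 0 and 0 in the knockout libraries, which did not overlap.

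**Figure D2:**
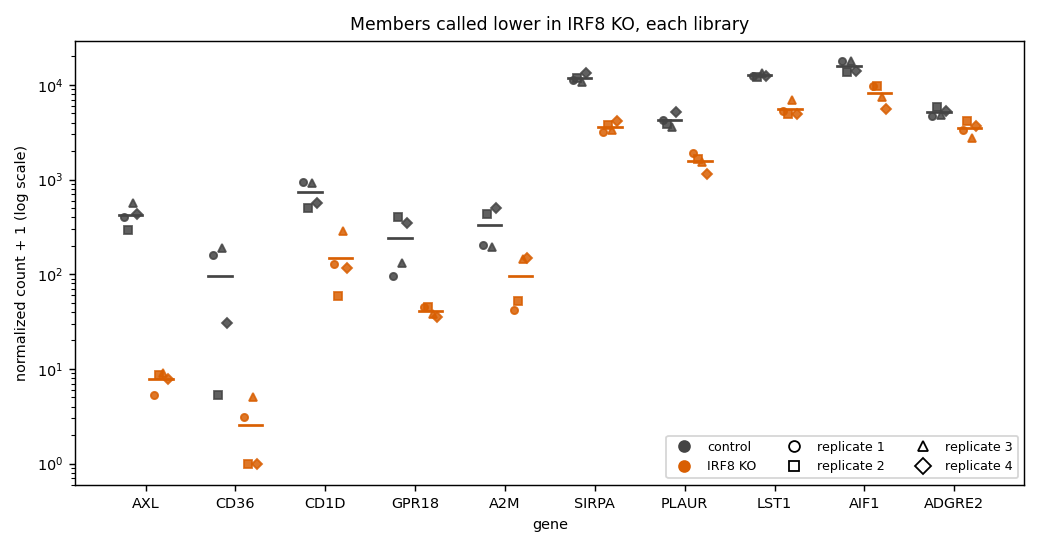
Normalized count + 1 (y axis, log scale) of the 10 members called lower, in each of the 8 libraries. Marker shape gives the replicate number, colour the group, and the horizontal lines the mean of 4 libraries plus 1. For all 10 genes the knockout values lie below the control values. CD36 comes closest to overlap, with a lowest control value of 4.31 and a highest knockout value of 4.06.

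The group for T cell interaction, antigen presentation and TNF family ligands also held AIF1 and LST1. It was divided as well, with 3 falls and 2 rises in 7 tested genes. CD4, the MHC class II coreceptor that human monocytes and macrophages also carry, had 3614, 4550.0, 3341 and 5361 normalized counts in the control and 24417, 23160.4, 18566 and 25860.3 in the knockout libraries. The lowest knockout library was more than 3 times as high as the highest control library. CD4 rose 5.46-fold (log2 fold change 2.46, SE 0.18, limma adjusted p = 7.6e-05). TNFSF13B (BAFF), the B cell survival factor made by myeloid cells, had 311, 98.3, 345 and 162 normalized counts in control replicates 1 to 4 and 969.7, 340.3, 749 and 769 in knockout replicates 1 to 4. It was higher in the knockout library of each pair, but knockout replicate 2 was just below control replicate 3, so that the groups overlapped (exact permutation test, p = 0.057). The estimated log2 fold change came to 1.69 (SE 0.46, limma adjusted p = 0.035), and the adjusted p was between 0.061 and 0.092 without control replicate 2 or 4 or without knockout replicate 1, 3 or 4. Centred on the median of its chromosome, it had a limma adjusted p of 0.051. TNFSF13 (APRIL), the related ligand, had 219 ± 46.7 and 160.3 ± 19.2 normalized counts (SD, n = 4 each, adjusted p = 0.21). Its reads may be shared with the TNFSF12-TNFSF13 readthrough gene.

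CD1D, which presents lipids to NKT cells, had 950.1, 494, 925 and 564 normalized counts in the control and 127, 57.3, 286 and 114 in the knockout libraries. Both groups had higher values in replicates 1 and 3, and the groups did not overlap. CD1D fell 5.02-fold (log2 fold change -2.49, SE 0.46, limma adjusted p = 0.0064). The neighbouring MHC class III genes LST1 and AIF1 on chromosome 6 were both lower. LST1, a leukocyte transmembrane protein, had 12428, 12156, 13316 and 12475 normalized counts in the control and 5287, 4945, 6917 and 4947 in the knockout libraries. The control libraries differed little, and the highest knockout library, replicate 3, was far below them (log2 fold change -1.20, SE 0.13, limma adjusted p = 4.8e-04). AIF1 (IBA1), an actin-bundling protein used as a marker of macrophages and microglia, had 17963, 13769.9, 17914 and 14205 normalized counts in the control and 9863, 9831, 7436 and 5533 in the knockout libraries. The groups did not overlap, and AIF1 fell 1.95-fold (log2 fold change -0.99, SE 0.20, limma adjusted p = 0.011). CD86, a costimulatory ligand of CD28, had 1395 ± 512 and 2103 ± 417 (SD, n = 4 each, adjusted p = 0.13). The second such ligand, CD80, had between 0 and 19.8 normalized counts over all libraries and was not tested.

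**Figure D3:**
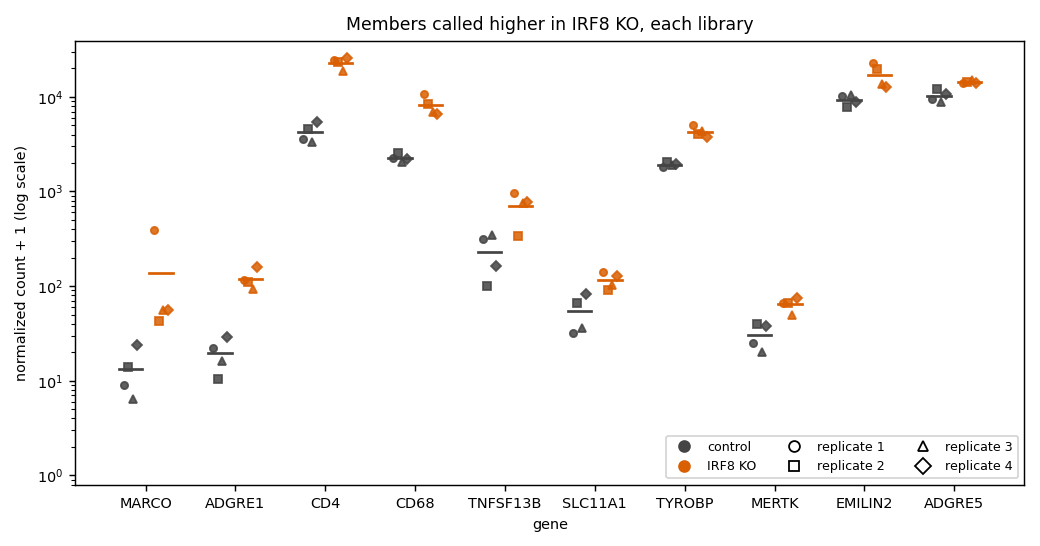
Normalized count + 1 (y axis, log scale) of the 10 members called higher, in each of the 8 libraries. Marker shape gives the replicate number, colour the group, and the horizontal lines the mean of 4 libraries plus 1. The groups overlap only for TNFSF13B among these 10 genes, and the MARCO value of knockout replicate 1, 390.0, stands above those of the other knockout libraries.

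The 2 TAM receptor kinases for dying cells went in opposite directions. AXL, which binds phosphatidylserine through its ligand GAS6, had 398, 289.8, 559 and 427 normalized counts in the control and 4.26, 7.65, 8.13 and 6.89 in the knockout libraries. Every knockout library held under 10 reads, and the groups were far apart. The group mean of AXL in the knockout libraries was 1.61% of the control mean (log2 fold change -5.76, SE 0.30, limma adjusted p = 1.0e-05). MERTK, the related receptor of resident macrophages, had 24.1, 38.8, 19.3 and 36.7 normalized counts in the control and 65.0, 66.0, 48.8 and 73.8 in the knockout libraries. All knockout values were above the control values, at a low level in both groups. MERTK rose 2.13-fold (log2 fold change 1.11, SE 0.30, limma adjusted p = 0.035). It was no longer called without control replicate 1 or 3 or knockout replicate 1, 2 or 4 (adjusted p between 0.067 and 0.096). A2M, the broad protease inhibitor alpha-2-macroglobulin, had 205, 429.6, 192 and 506 normalized counts in control replicates 1 to 4 and 40.5, 51.6, 142 and 147 in knockout replicates 1 to 4. Within the control group replicates 2 and 4 were the higher ones, and the knockout libraries were all lower than the lowest control library. The estimated log2 fold change came to -1.89 (SE 0.52, limma adjusted p = 0.036), and the adjusted p was between 0.077 and 0.091 without control replicate 2 or 4 or knockout replicate 1 or 2.

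Complement C1q, which opsonizes dying cells, was hardly expressed. C1QA had 13.3 ± 3.63 normalized counts in the control and 26.6 ± 12.8 in the knockout libraries (SD, n = 4 each, adjusted p = 0.30). C1QB and C1QC had at most 4.02 and 4.71 normalized counts in any library and were not tested. APOE, the apolipoprotein secreted by macrophages, had 23.4 ± 14.6 and 30.3 ± 12.2 normalized counts (SD, n = 4 each, adjusted p = 0.61).

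Of the 3 genes for the handling of haem, metals and vitamin D, 1 rose. SLC11A1 (NRAMP1), the divalent metal transporter of the phagosome, had 30.6, 64.7, 35.4 and 81.0 normalized counts in the control and 139.6, 88.9, 103 and 126 in the knockout libraries. The highest control library, replicate 4, was just below the lowest knockout library, replicate 2. The estimated log2 fold change came to 1.19 (SE 0.35, limma adjusted p = 0.047). It lost the call under 11 of 18 alternatives, more than any other called member, with an adjusted p between 0.053 and 0.12 without any one library other than control replicate 4 and 0.069 with edgeR. HMOX1, the inducible haem oxygenase, had 119.9, 116, 135 and 794 normalized counts in the control and 517, 343, 864 and 393 in the knockout libraries. Control replicate 4 was in the range of the knockout libraries and the other 3 control libraries were below all of them. HMOX1 was not called (log2 fold change 1.33, adjusted p = 0.18), and without control replicate 4 its log2 fold change was 1.99 (adjusted p = 0.0074). VDR, the vitamin D receptor, had 1017 ± 315 and 697 ± 148 (SD, n = 4 each, adjusted p = 0.19).

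Of the adhesion receptors of the EGF-TM7 family, ADGRE1 and ADGRE5 rose and ADGRE2 fell. ADGRE1 (EMR1, the human counterpart of F4/80) had 20.9, 9.49, 15.0 and 28.2 normalized counts in the control and 116, 111, 92.1 and 157 in the knockout libraries. All knockout libraries were above all control libraries, and ADGRE1 rose 6.47-fold (log2 fold change 2.70, SE 0.36, limma adjusted p = 0.0013). ADGRE5 (CD97) had 9454, 12090.5, 8727 and 10808 normalized counts in the control and 14029, 14321, 15194 and 14041 in the knockout libraries. The groups did not overlap, but the rise was small (log2 fold change 0.50, SE 0.12, limma adjusted p = 0.024), and the adjusted p was between 0.051 and 0.071 without control replicate 1 or 3 or knockout replicate 1, 3 or 4. With quantile normalization of the libraries it was 0.064. ADGRE2 (EMR2) had 4697, 5886, 4765 and 5244 normalized counts in the control and 3377, 4167, 2721 and 3649.7 in the knockout libraries. Here the knockout libraries were all below the control libraries (log2 fold change -0.58, SE 0.15, limma adjusted p = 0.030). Without any one library other than knockout replicate 2 the adjusted p was between 0.051 and 0.073, and centred on the median of chromosome 19 it was 0.078. ADGRE2 and ADGRE5 have near-identical EGF-like domains, so the split of reads between them is uncertain.

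GPR18, a receptor for lipid mediators, had 94.1, 404, 131 and 344 normalized counts in control replicates 1 to 4 and 43.7, 44.0, 36.6 and 34.4 in knockout replicates 1 to 4. The control values were spread widely, with replicates 2 and 4 high, while the knockout values were close together and below all of them. GPR18 fell 6.13-fold (log2 fold change -2.34, SE 0.47, limma adjusted p = 0.009). GPR183 (EBI2), the oxysterol receptor that guides migration and the neighbour of GPR18 on chromosome 13, had 1026, 75.0, 1079 and 54.6 normalized counts in the control and 1589, 152, 808 and 139 in the knockout libraries. Replicates 1 and 3 were several times above replicates 2 and 4 in both groups, opposite to GPR18 in the control group, and no difference between the groups could be detected against this spread (log2 fold change 0.64, SE 1.21, adjusted p = 0.78). P2RY13, a receptor for ADP, was at 0 in all control libraries and at most 4.92 in a knockout library. GPR18 and GPR183 lie within UBAC2, and LST1, A2M, SLC11A1 and ADGRE2 overlap NCR3, KLRG1, CTDSP1 and ZNF333, as CD300LF, STAB1 and CD86 overlap RAB37, NT5DC2 and ILDR1. The library kit was stranded, but the sources used here do not say whether counting used the strand, so reads of such overlapping genes cannot be told apart with certainty.

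Of the urokinase receptor and its ligand, the receptor was called, and the difference between their responses was not tested. PLAUR, the receptor that focuses plasminogen activation on the cell surface, had 4285, 3894, 3606 and 5127 normalized counts in the control and 1923, 1666, 1528 and 1146 in the knockout libraries. No knockout library reached the lowest control library, and PLAUR fell 2.70-fold (log2 fold change -1.44, SE 0.18, limma adjusted p = 0.001). PLAU, the urokinase itself, had 2472 ± 67.4 and 2492 ± 595 normalized counts (SD, n = 4 each), with a log2 fold change of -0.02 and a standard error of 0.17. EMILIN2, an elastin-interface glycoprotein of the matrix, had 10119, 7894, 10518 and 8912 normalized counts in the control and 22559.7, 19620.1, 13792 and 12771 in the knockout libraries. The groups did not overlap, and knockout replicates 1 and 2 were higher than 3 and 4 (log2 fold change 0.84, SE 0.20, limma adjusted p = 0.020). Without control replicate 4 the adjusted p was 0.052.

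THBD, the thrombin receptor thrombomodulin, and CD93 are neighbours on chromosome 20. THBD had 7913, 3823, 7166 and 3700.3 normalized counts in the control and 6422, 7747, 5865 and 4468 in the knockout libraries. The groups overlapped over most of their range (log2 fold change 0.18, SE 0.29, limma adjusted p = 0.75). The median of the chromosome, in contrast, was lower in each knockout library, between -0.98 and -0.85 relative to the control mean on the log2 scale. Centred on the chromosome median, THBD was higher by 1.08 (limma adjusted p = 0.042), with all knockout libraries above all control libraries (exact permutation test, p = 0.029). CD93, a receptor of monocytes and endothelium, had 2.41, 0, 7.52 and 1.88 normalized counts in the control and 1.07, 0, 1.35 and 0.984 in the knockout libraries and was too low to test.

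**Figure D4:**
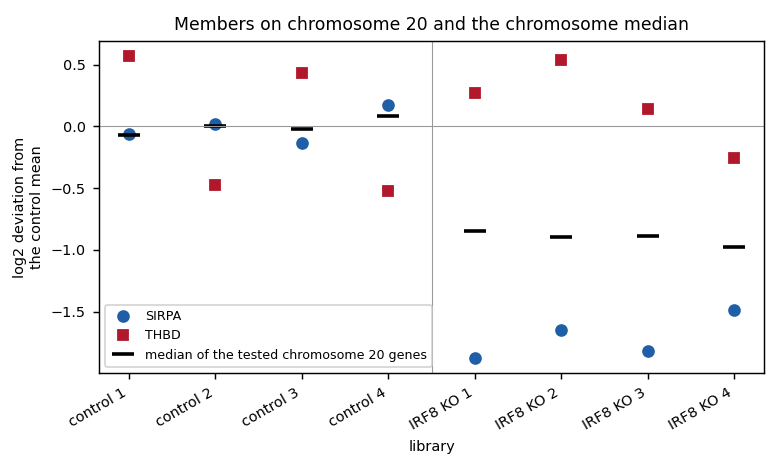
Log2 deviation from the control mean (y axis) of SIRPA, THBD and the median of the 351 tested chromosome 20 genes in each of the 8 libraries (x axis). In the knockout libraries SIRPA lies below and THBD above the chromosome median, which ranges from -0.98 to -0.85 there.

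Some members followed the replicate number. In 11 of the 40 tested members, or 27.5%, replicates 1 and 3 were apart from replicates 2 and 4 in the same direction in both groups, against 38.2% of all tested genes. Replicates 1 and 3 were the higher ones for CD1D, CD300C, CD36, GPR183 and TREM2, and the lower ones for ADGRE2, CD101, LAIR1, MERTK, PILRA and SIRPA. Neither the labels nor the methods say what a replicate number marks. For GPR183, TREM2, CD101, CD300C and PILRA the step between the means of these replicates was, within each group, larger than the difference between the groups on the log2 scale.

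**Figure D5:**
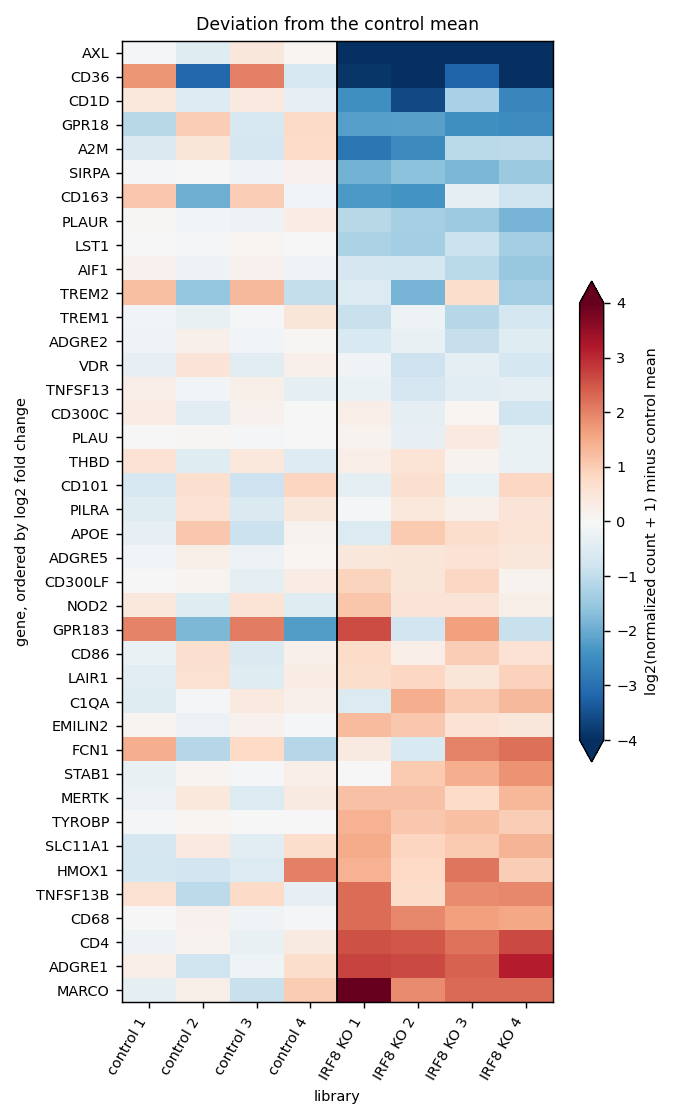
Colours give log2(normalized count + 1) minus the control mean of the gene, for the 40 tested members (rows, ordered by log2 fold change) in the 8 libraries (columns), clipped at 4 in either direction. The knockout columns are of one colour at the top and at the bottom, while genes such as GPR183, TREM2 and CD36 also differ between control replicates 1 and 3 and control replicates 2 and 4.

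A second list of 50 monocyte and macrophage genes that are not members, of which 49 were in the table and 6 are the defining markers named above, also held genes called in both directions. Of its 43 tested genes, 13 were lower and 13 higher, or 30.2% each, against 9.56% and 8.65% of all tested genes. Their median log2 fold change was -0.12, against -0.00094 for all tested genes. Of the 43, 6 (MS4A6A and CPVL among them) passed the filter through the control group alone and 2 through the knockout group alone. These counts too are therefore a description. The largest falls were in MS4A6A, from 3191 ± 2473 to 2.35 ± 0.868 normalized counts, in CPVL, from 52.8 ± 23.2 to 0.677 ± 1.35, and in LILRB4, from 3842 ± 868 to 142 ± 143 (SD, n = 4 each). MS4A6A is a tetraspanning membrane protein of myeloid cells, CPVL a carboxypeptidase and LILRB4 an inhibitory receptor. The largest rises were in CEBPE, from 44.0 ± 11.5 to 2544 ± 1728, in VSIG4, from 10.2 ± 5.30 to 170.3 ± 80.3, and in CLEC12A, from 72.5 ± 42.8 to 1239 ± 1325 (SD, n = 4 each). The list is not restricted to genes particular to monocytes, since CEBPE is a transcription factor of granulocyte maturation, and 5 neutrophil and granulocyte markers rose in the same libraries. VSIG4 is a complement receptor of tissue macrophages and CLEC12A an inhibitory lectin. The limma adjusted p-values of these 6 genes, in the order of naming, were 7.6e-05, 4.9e-04, 3.6e-04, 2.2e-04, 0.0013 and 0.012, and no group values overlapped.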

How the data were processed

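RNA-Seq of MV4-11 cells infected with the control vector (4 libraries) and of IRF8 KO cells (4 libraries) was analysed. Per the methods of the study, the authors used RNA-Star with the GENCODE v32 annotation for alignment, featureCounts for counting per gene and DESeq2 for normalization. The authors deposited these values, a signal per gene equal to counts divided by 1 size factor per library. For the RNA-Seq, the genome build was not given in the sources used here. Left out were the ChIP-Seq samples and a table with the authors' own fold changes and p-values. Columns named as wild type were taken as control libraries of the same number. After division by what 1 read is worth in each library, 100% of the values lay within 0.01 of a whole number.

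After log2(normalized count + 1) transformation, the 13110 genes averaging 10 or more were fitted with limma (version 3.58.1, R 4.3.3), using a trended, robust prior and Benjamini-Hochberg adjustment. The fit was tested on simulated data. Alternatives were other pseudocounts, filters and scalings, limma without trend, tests of the recovered reads with edgeR 4.0.16 or DESeq2 1.42.0, the replicate block, centring on chromosome medians (RefSeq, GRCh38.p14, by symbol), the thresholds of the study and leaving out each library. As a check of pairing, each library was taken relative to the mean of its group, and libraries of one number then had correlations over genes of 0.37, 0.48, 0.45 and 0.50. The numbers were hence taken as pairs, although replicate 1 also went with replicate 3 (0.47 and 0.41) and replicate 2 with replicate 4 (0.40 and 0.41). Control replicate 1 correlated more with knockout replicate 3 (0.47) than with knockout replicate 1 (0.37), so pairing by number is uncertain. Values in every library are given for IRF8, the 10 largest falls and rises among called members and the members on chromosome 20. The per-library values of TREM2, HMOX1, GPR183 and CD300E were added after their values were seen. From the second list, the 3 largest falls and rises are named. The members and lists were chosen with earlier results of these data known.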

Additional observations from a re-analysis of the deposited data

Results flagged for a closer look

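In 2 of 82 groups of 4 libraries (IRF8 and the 40 tested members), 1 library was far from the others by Dixon's test, which chance gives in about 1 of 20 groups. For HMOX1, control replicate 4 had 794 normalized counts and the other control libraries 116 to 135, a gap of 0.972 of the range of the group. For MARCO, knockout replicate 1 had 390.0 normalized counts and the other knockout libraries 42.1 to 55.5, a gap of 0.961 of the range. What sets these libraries apart was not tested.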

How the results depend on the processing

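Leaving out single libraries gave 8 to 9 lower and 6 to 10 higher members, and the counts of the second list were then 11 to 15 (lower) and 12 to 14 (higher), while the log2 fold change of IRF8 ranged from -2.46 to -1.65. With a mean of at least 100 as the filter, 6 members were called higher, since fewer members were tested. With the replicate block, 11 members were lower and 13 higher (TREM1, LAIR1, NOD2 and STAB1 in addition), and 3769 genes were called in all, against 2387 without it. In the second list 15 genes were then lower and 18 higher. The block changed no other call of a member. Of the 20 called members, 11 kept the call under every alternative run that gave a value and 0 changed direction. A2M, ADGRE2, ADGRE5, CD36, EMILIN2, MARCO, MERTK, SLC11A1 and TNFSF13B lost it under at least one. DESeq2 gave no adjusted p for MARCO. Of the members not called, 9 were called under an alternative, C1QA (adjusted p = 0.046) without knockout replicate 1, CD300LF (0.045) without knockout replicate 4 and CD86 (0.044) without control replicate 2 among them. Reversed values were found for CD101, GPR183 and PLAU, none of them called. With single libraries left out, CD101 ranged from -0.079 to 0.49, GPR183 from -0.11 to 1.32 and PLAU from -0.15 to 0.087, and PLAU was 0.0051 with edgeR and 0.014 with DESeq2. The cause of these reversals was not tested. Genes below about 10 normalized counts rest on about as many reads, and intervals for them were not computed.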
